A study of Mus musculus with 30 samples.

Results

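The livers of 12-month-old male C57BL/6J mice were sampled at 6 times of day, and the genes whose RNA rose and fell with a period of 24 h were described by the time of their peak and by what they do. These 6 libraries are 6 of the 30 of the series. They were collected at ZT1, ZT5, ZT9, ZT13, ZT17 and ZT21, where ZT is zeitgeber time in hours after lights on, from wild-type mice kept under a 12-h/12-h light/dark cycle with chow freely available. The dark phase, when mice are active and eat most, runs from ZT12 to ZT24. Genes were chosen by level alone: 9103 of the 54429 gene symbols in the table had a mean of 5 or more CPM (the count of a gene scaled to its library's total) over the 6 libraries, and each of these was fitted with a 24-h cosine on the log2 scale. Libraries of the same strain at 2 and 6 months, taken at the same 6 times, served for comparison, as did 2 libraries from 12-month wild-type littermates of liver-specific *Egr-1* knockout mice, labelled H and L. The knockout line was made with *Alb-Cre*, which deletes in hepatocytes, and backcrossed from strain 129, and the study's methods place its 12-month H and L collections at ZT5 and ZT21. Each age and time point had 1 library, and how many mice went into each is not given for the time course in the sources used here. For the genotype experiment the study speaks of several mice per group, while H and L are 1 library each. Every spread given below is therefore the spread of single libraries around a fitted curve, not a spread between mice.

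The liver clock is a loop of transcription and repression. The proteins BMAL1 (gene *Arntl*) and CLOCK switch on genes with an E-box in their promoter, among them the *Per* and *Cry* genes, whose proteins then block BMAL1 and CLOCK, and *Nr1d1* and *Nr1d2*, whose proteins REV-ERB alpha and beta shut *Arntl* down through RORE sites. PAR-bZIP factors such as DBP carry the rhythm on to D-box genes, and feeding, body temperature and hormones drive further hepatic rhythms in chaperones, glycogen, lipid, haem and drug metabolism.

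The total counts of the 6 libraries ranged from 13582327 to 16262858, so that 1 CPM stood for 12.7 to 18 reads. TMM factors moved the libraries by -0.10 to 0.14 on the log2 scale. Hepatocyte markers were abundant at every time, with summed levels of 109555 to 143097 CPM for 12 genes such as *Alb* and *Apoa1*, and neutrophil, pancreas and adipocyte markers had no member above the mean of 5 CPM. The summed pancreas markers were at 19.5 CPM at ZT17 and at 0.33 to 1.34 CPM at the other times. The part of pancreas RNA in other results was not tested. The ZT9 library stood apart in its mitochondrial, immunoglobulin and globin RNA. Mitochondrial genes took 12.6% of its counts against 6.82% to 8.15% in the other 5, and its TMM factor was 0.934 against 1.01 to 1.1 in the others. It also held the highest level of immunoglobulin and globin RNA. *Jchain*, the joining chain of secreted antibodies, was measured at 8.33 CPM at ZT1, 5.75 at ZT5, 65.4 at ZT9, 5.51 at ZT13, 4.65 at ZT17 and 5.84 at ZT21, and *Hbb-bt*, a beta globin, at 98.6 CPM at ZT1, 132 at ZT5, 368 at ZT9, 56.4 at ZT13, 36 at ZT17 and 54 at ZT21. The sum of the red blood cell markers was 4813 CPM at ZT9 and 1004 to 2166 CPM at the other times. All 4 immunoglobulin genes tested and 5 of 23 mitochondrial genes passed the rhythm test that follows, and without the ZT9 library the amplitudes of *Jchain*, *Igkc*, *Ighm* and *Igkv3-2* fell to 0.25, 0.25, 0.34 and 0.85 from 1.11, 1.1, 1.00 and 1.74 on the log2 scale. Without that library 326 genes in all were rhythmic, 295 of them among the 474 given next. The part of blood in other results was not tested.

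**Figure D1:**
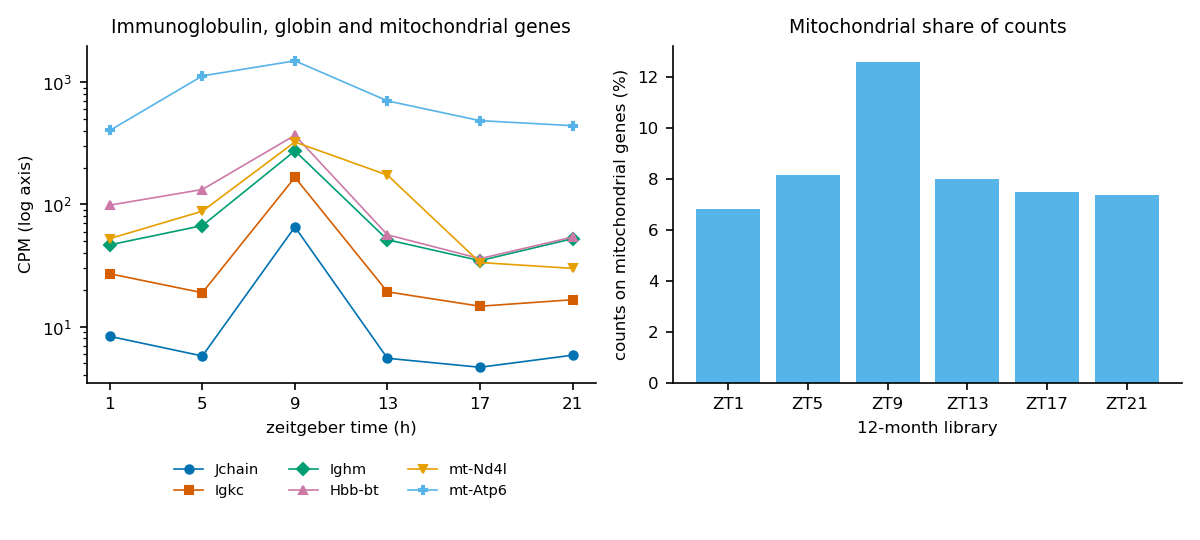
Left, level in CPM on a log axis of 3 immunoglobulin genes, 1 globin gene and 2 mitochondrial genes in each 12-month library, by zeitgeber time. Right, the share of counts on mitochondrial genes in percent, with the ZT9 library at 12.6% and the other 5 between 6.82% and 8.15%; *Jchain* reached 65.4 CPM at ZT9 and 8.33 CPM or less elsewhere.

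At 12 months, 474 of the 9103 genes were rhythmic, which is 5.21% of those tested, by edgeR's quasi-likelihood F-test of the 24-h cosine and sine terms at a Benjamini-Hochberg adjusted p under 0.05. A further count without adjustment gave 1916 genes with p under 0.05. The amplitude, the distance from the daily mean to the fitted peak on the log2 scale, ran from 0.29 to 2.84 over the rhythmic genes with a median of 0.56, beside a median of 0.18 over all tested genes. A gene at the median differed 2.32-fold between its highest and lowest library. Of the 474 genes, 63 had an amplitude of 1 or more and 9 of 2 or more. The share of variance that the cosine described, r2, was 0.9 or more in 244 of them and under 0.6 in 5. Its median was 0.90 over the rhythmic genes and 0.51 over all tested genes. The rhythmic genes were chosen by a test of this same cosine, so a high r2 among them is partly built in.

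In the main fit the peaks gathered at dawn and in the middle of the night. In 4-h windows centred on the sampled times, 125 genes peaked around ZT1, 64 around ZT5, 34 around ZT9, 78 around ZT13, 115 around ZT17 and 58 around ZT21. The windows around ZT1 and ZT17 held 26.4% and 24.3% of the rhythmic genes and 18.3% and 19.0% of all tested genes, and the window around ZT9 held 7.17% and 14.4%. From ZT12 to ZT24, 270 genes peaked (57%), and 204 from ZT0 to ZT12. All tested genes had 52.4% of their peaks from ZT12 to ZT24. With library totals in place of TMM factors the share peaking from ZT12 to ZT24 was 71.0%, so the split between day and night moved with the scaling. The share around ZT17 was 16.9% with the 6 libraries alone and 18.9% without ZT5, so the gathering at that time was not firm.

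**Figure D2:**
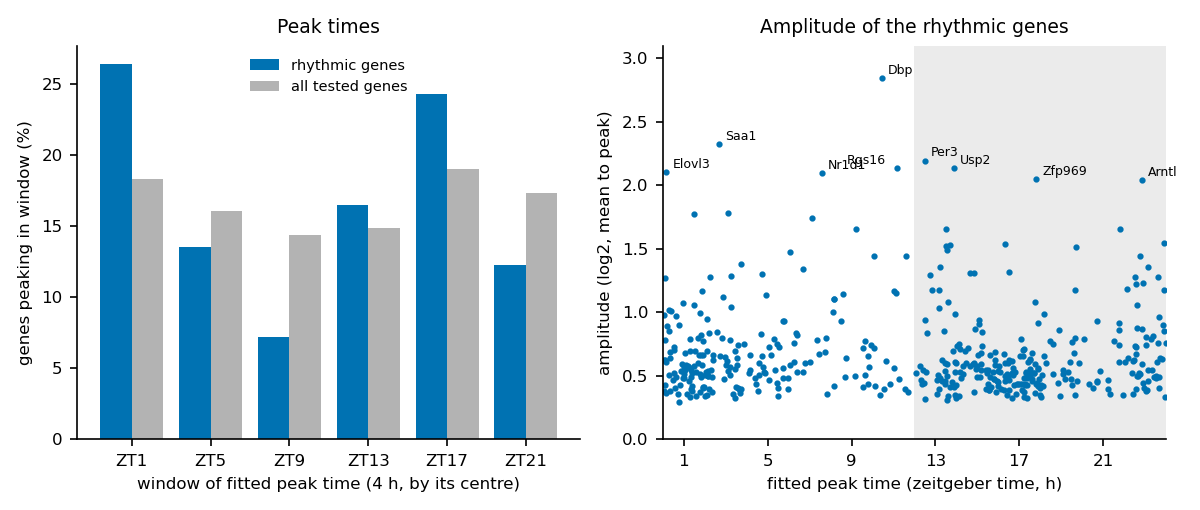
Left, the percentage of the 474 rhythmic genes and of all 9103 tested genes whose fitted peak fell in each 4-h window of zeitgeber time, highest for rhythmic genes around ZT1 (26.4%) and ZT17 (24.3%). Right, amplitude on the log2 scale against peak time for each rhythmic gene, 1 point a gene, with the dark phase shaded; *Dbp*, at 2.84, has the highest amplitude.

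Genes of the clock were among the strongest rhythms: *Dbp*, *Per3*, *Usp2*, *Nr1d1* and *Arntl* were 5 of the 9 rhythmic genes with an amplitude of 2 or more. Of 24 tested genes on the 3 clock lists, 18 were rhythmic, beside 5.21% of all tested genes. They were 3 of 4 activators, 6 of 10 repressors and 9 of 10 output factors. Like the other lists, the clock lists were chosen with earlier results of these data known. The median amplitude of the tested members was 0.85, 1.38 and 1.17 in these lists, beside 0.18 over all tested genes. The standard errors of their peak times ranged from 0.322 to 1.07 h. *Ciart*, *Npas2*, *Bhlhe41*, *Csnk1e*, *Fbxl21* and *Lonrf3* were below the mean of 5 CPM and were not tested.

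Among the activators, *Arntl*, at chr7:113207465-113314126 of GRCm38, was lowest in the late day and highest around dawn. Its levels were 17.2 CPM at ZT1, 10.7 at ZT5, 0.788 at ZT9, 1.5 at ZT13, 9.7 at ZT17 and 18.9 at ZT21, where the ZT9 value rests on 10 reads (exact Poisson 95% interval 0.378 to 1.45 CPM, counting error only). The fitted peak was ZT22.8 ± 0.75 h with an amplitude of 2.04 ± 0.40 (adjusted p = 0.00949). *Clock*, its partner, had a smaller swing and was lowest at ZT13, 53.8 CPM at ZT1, 44.2 at ZT5, 28 at ZT9, 22.7 at ZT13, 35.3 at ZT17 and 50.9 at ZT21, peaking at ZT0.0474 ± 0.357 h with an amplitude of 0.62 ± 0.06 (adjusted p = 0.00953). *Rora*, a nuclear receptor that drives *Arntl* through RORE sites, had an amplitude of 0.22 ± 0.16 and did not pass the test (adjusted p = 0.43).

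The repressors followed one another through the day. *Nr1d1* came first, at 13.2 CPM at ZT1, 44.3 at ZT5, 36 at ZT9, 15.4 at ZT13, 5.67 at ZT17 and 1.34 at ZT21, peaking at ZT7.57 ± 0.733 h with an amplitude of 2.09 ± 0.40 (adjusted p = 0.00114). *Nr1d2* came later, at 25.4 CPM at ZT1, 61.5 at ZT5, 122 at ZT9, 78.5 at ZT13, 52.6 at ZT17 and 12.4 at ZT21, peaking at ZT10.1 ± 0.696 h (amplitude 1.45 ± 0.26, adjusted p = 0.00108). Both REV-ERB genes were thus highest at ZT5 or ZT9, when *Arntl* was falling or lowest. The 3 *Per* genes peaked around the start of the dark phase. *Per3* was at 0.318 CPM at ZT1, 3.75 at ZT5, 15.9 at ZT9, 22.9 at ZT13, 9.13 at ZT17 and 3.1 at ZT21, with 5 reads at ZT1 (0.103 to 0.742 CPM), and its highest library was 71.9 times its lowest. *Per1* was at 1.84 CPM at ZT1, 4.72 at ZT5, 10.2 at ZT9, 23.4 at ZT13, 15.8 at ZT17 and 6.19 at ZT21 and *Per2* at 3.75 CPM at ZT1, 8.02 at ZT5, 12.5 at ZT9, 31.4 at ZT13, 25.9 at ZT17 and 17.7 at ZT21. Fitted peaks were ZT12.5 ± 0.594 h for *Per3*, ZT13.7 ± 0.433 h for *Per1* and ZT14.8 ± 0.818 h for *Per2*, with amplitudes of 2.19 ± 0.34, 1.53 ± 0.17 and 1.31 ± 0.28 and adjusted p of 0.00248, 0.00331 and 0.00324. *Cry1* came last, at 18.3 CPM at ZT1, 6.27 at ZT5, 5.36 at ZT9, 14 at ZT13, 28.4 at ZT17 and 48.5 at ZT21, peaking at ZT19.7 ± 0.322 h (amplitude 1.52 ± 0.13, adjusted p = 0.000421). *Cry2* (amplitude 0.38 ± 0.08, adjusted p = 0.231) and *Bhlhe40*, which encodes the repressor DEC1 (amplitude 0.97 ± 0.32, adjusted p = 0.0673), did not pass. Nor did *Csnk1d*, a kinase that acts on PER and CRY proteins, with an amplitude of 0.10.

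Of the output factors, *Dbp*, at chr7:45705088-45710203 of GRCm38, had the highest amplitude of the 9103 genes. It was measured at 1.46 CPM at ZT1, 22.8 at ZT5, 117 at ZT9, 58.1 at ZT13, 9.19 at ZT17 and 3.59 at ZT21, an 80.1-fold difference between ZT9 and ZT1, and peaked at ZT10.4 ± 0.522 h (amplitude 2.84 ± 0.39, adjusted p = 0.000592). The other PAR-bZIP genes swung less and peaked later: *Tef* at ZT12.8 ± 0.647 h with an amplitude of 1.18 ± 0.20, and *Hlf* at ZT15 ± 0.558 h with 0.58 ± 0.08. *Nfil3*, whose protein E4BP4 competes with them for D-boxes, ran against them at 45.2 CPM at ZT1, 14.4 at ZT5, 7.73 at ZT9, 9.63 at ZT13, 20.1 at ZT17 and 37.8 at ZT21, peaking at ZT22.5 ± 0.374 h (amplitude 1.28 ± 0.13, adjusted p = 0.00158). *Usp2*, a deubiquitinase, rose from 1.27 CPM in the ZT1 library to 36.8 CPM in the ZT13 library, and *Wee1*, a kinase that holds back mitosis, from 2.23 to 22.7 CPM between the same times. *Nampt*, the rate-limiting enzyme of NAD salvage, was at 45.6 CPM at ZT1, 48.6 at ZT5, 97.1 at ZT9, 137 at ZT13, 133 at ZT17 and 96.3 at ZT21, with a fitted peak at ZT14.9 (amplitude 0.87 ± 0.11, adjusted p = 0.00183). *Klf10* and *Tspan4* were also rhythmic, with amplitudes of 1.16 ± 0.32 and 0.60 ± 0.12, and *Pparg* missed the threshold (amplitude 0.52 ± 0.16, adjusted p = 0.0519).

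**Figure D3:**
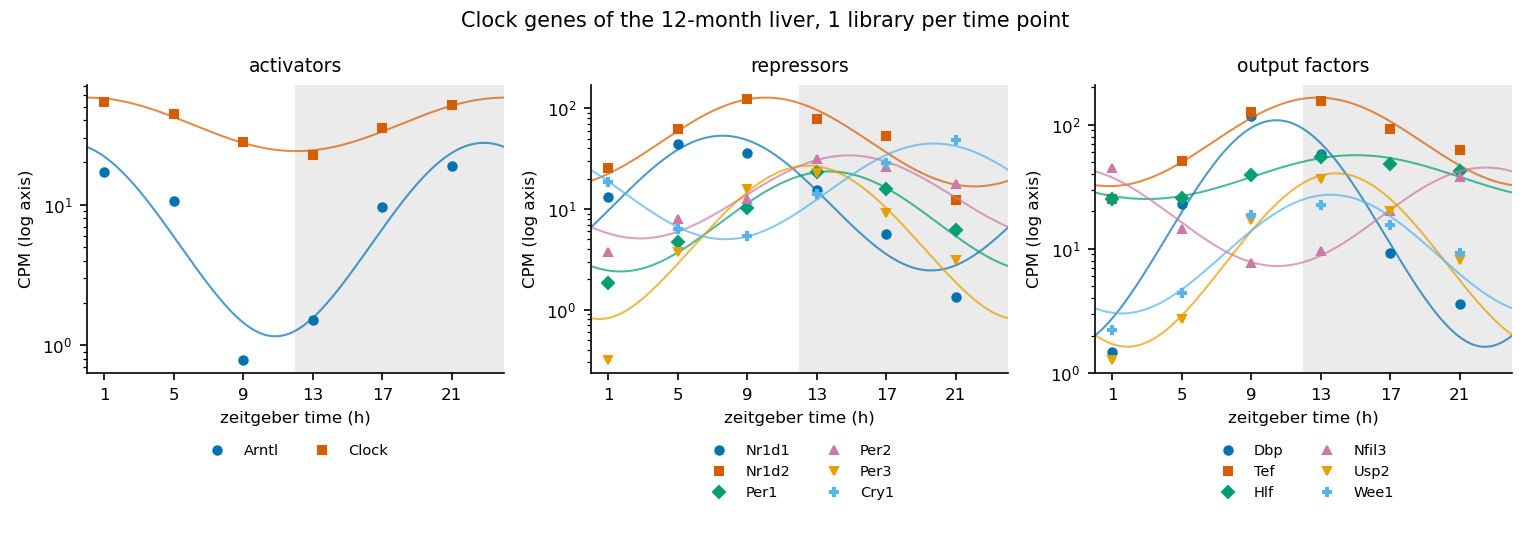
Level in CPM on a log axis against zeitgeber time for rhythmic clock activators, repressors and output factors at 12 months; points are single libraries, lines the fitted 24-h cosines, and the dark phase is shaded. *Nr1d1*, *Nr1d2*, *Dbp*, the *Per* genes, *Cry1* and *Arntl* peak in turn from ZT7.57 to ZT22.8.

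The promoters of some of these genes hold the letters that the loop is built on, and those chosen here are ones with a match. Each is the RefSeq sequence of GRCm38.p6 from 250 bases before to 50 bases after the start of transcription, 5′ to 3′ on the gene's own strand, with the motif in capitals. *Per1* (chr11:69098699-69098998, plus strand) and *Tef* (chr15:81802423-81802722, plus strand) each held 1 E-box, CACGTG. *Per3* (chr4:151044616-151044915, minus strand) held 2 D-boxes, TTATGTAA. *Nfil3* (chr13:52980990-52981289, minus strand) and *Arntl* (chr7:113207261-113207560, plus strand) each held 1 RORE core, TAGGTCA or its complement TGACCTA. *Hsph1* (chr5:149636287-149636586, minus strand), a chaperone gene taken up further on, held 2 pairs of heat shock half-sites, TTCNNGAA. It also held 1 E-box, which is not in capitals here.
Per1: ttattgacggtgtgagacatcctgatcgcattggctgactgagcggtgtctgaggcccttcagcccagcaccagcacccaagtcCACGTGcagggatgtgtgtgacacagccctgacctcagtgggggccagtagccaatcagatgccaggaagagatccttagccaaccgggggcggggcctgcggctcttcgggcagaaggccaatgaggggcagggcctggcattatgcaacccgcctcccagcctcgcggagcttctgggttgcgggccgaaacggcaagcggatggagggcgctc
Tef: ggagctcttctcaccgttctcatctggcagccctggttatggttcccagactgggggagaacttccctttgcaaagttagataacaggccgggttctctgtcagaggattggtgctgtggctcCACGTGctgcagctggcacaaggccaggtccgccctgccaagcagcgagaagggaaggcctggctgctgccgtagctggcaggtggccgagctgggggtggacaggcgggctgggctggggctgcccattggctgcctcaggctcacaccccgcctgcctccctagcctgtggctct
Per3: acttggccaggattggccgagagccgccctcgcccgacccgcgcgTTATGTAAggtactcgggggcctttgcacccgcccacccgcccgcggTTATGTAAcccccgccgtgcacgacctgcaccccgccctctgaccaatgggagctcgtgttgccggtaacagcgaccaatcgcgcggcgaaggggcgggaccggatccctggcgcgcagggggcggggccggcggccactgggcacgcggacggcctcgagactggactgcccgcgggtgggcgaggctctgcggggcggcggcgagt
Nfil3: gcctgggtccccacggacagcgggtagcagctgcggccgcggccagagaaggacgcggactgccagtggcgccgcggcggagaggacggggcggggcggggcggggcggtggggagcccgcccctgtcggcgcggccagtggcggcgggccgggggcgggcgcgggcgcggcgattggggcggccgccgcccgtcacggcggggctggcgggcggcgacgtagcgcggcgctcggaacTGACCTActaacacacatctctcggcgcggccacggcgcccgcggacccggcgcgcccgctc
Arntl: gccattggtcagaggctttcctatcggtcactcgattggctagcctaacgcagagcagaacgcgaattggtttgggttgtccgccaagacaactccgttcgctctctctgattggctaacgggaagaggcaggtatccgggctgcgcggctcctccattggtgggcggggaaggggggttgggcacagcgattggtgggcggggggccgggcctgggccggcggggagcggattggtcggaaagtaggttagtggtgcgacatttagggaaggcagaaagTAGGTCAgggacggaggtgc
Hsph1: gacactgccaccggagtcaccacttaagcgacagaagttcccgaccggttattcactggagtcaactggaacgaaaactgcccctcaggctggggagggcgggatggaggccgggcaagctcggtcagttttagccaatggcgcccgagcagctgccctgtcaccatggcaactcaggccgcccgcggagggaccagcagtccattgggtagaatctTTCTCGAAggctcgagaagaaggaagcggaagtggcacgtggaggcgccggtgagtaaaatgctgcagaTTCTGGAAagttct
The first capital of the E-box lay at -166 in *Per1* and -127 in *Tef*, those of the D-boxes at -205 and -158 in *Per3*, those of the RORE cores at -12 in *Nfil3* and +31 in *Arntl*, and those of the heat shock pairs at -33 and +37 in *Hsph1*, counted from the start of transcription. *Cry1* also held 1 E-box and *Hlf* 1 CRE site, while no E-box, D-box or RORE core was found in the windows of *Dbp*, *Nr1d1*, *Nr1d2*, *Usp2*, *Clock* and *Nampt*. A second listed start of *Per1* and of *Arntl* had no match either, and that of *Tef* held 1 E-box.

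Motifs were searched on both strands in the 7089 tested genes with a promoter in the table, of which 367 were rhythmic. The E-box was found in 12.3% of the tested promoters and in 16.1% of the rhythmic ones, and in 8 of 20 promoters of genes peaking around ZT9 (40.0%) and 3 of 53 around ZT5 (5.66%). The D-box, as TTATGTAA or TTACGTAA, was in 1.07% of tested promoters and in 4 of 60 of the window around ZT13 (6.67%). The RORE core was in 2.67% of tested promoters, in 8.16% of the window around ZT21 and in 7.55% of that around ZT5. The heat shock pair was in 8.35% of tested promoters, in 5.18% of rhythmic ones and in 2 of 6 promoters of rhythmic chaperone genes. CRE sites, TGACGTCA, were in 3.67% of tested promoters and 1.91% of rhythmic ones. These are counts of letters in a short window, and no binding was measured.

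Among heat shock chaperones, which fold proteins and respond to changes in body temperature, 7 of 22 tested were rhythmic (31.8%, beside 5.21% of all genes), with peaks in the dark phase between ZT18 and ZT20.7. The same 5.21% is the background for each share of a list given further on. The median amplitude of the 22 chaperones was 0.40. *Hsph1*, the HSP110 chaperone, was at 35.8 CPM at ZT1, 15.6 at ZT5, 23.5 at ZT9, 39.1 at ZT13, 71.8 at ZT17 and 53.1 at ZT21 (amplitude 0.98 ± 0.13, adjusted p = 0.00694). *Hspb1*, a small heat shock protein, was at 35.9 CPM at ZT1, 16.7 at ZT5, 14 at ZT9, 19.4 at ZT13, 36.7 at ZT17 and 49.4 at ZT21 and had the smallest standard error of the 7, with a peak at ZT20.7 ± 0.173 h (amplitude 0.93 ± 0.04, adjusted p = 0.00324). The HSP90 gene *Hsp90aa1* held 409 CPM at ZT17 and 397 CPM at ZT21, and 172 to 266 CPM at the other times. Its co-chaperones *Stip1*, *Fkbp4*, *Ahsa1* and *Chordc1* were rhythmic with amplitudes of 0.43, 0.43, 0.35 and 0.48. The inducible *Hspa1b* had an amplitude of 1.22 ± 0.39 but did not pass the test (adjusted p = 0.217), nor did *Hspa8* (adjusted p = 0.292). None of the 4 cold-inducible RNA-binding genes passed. *Cirbp*, the best known, was at 12.7 CPM at ZT1, 23 at ZT5, 11.4 at ZT9, 10.8 at ZT13, 8.68 at ZT17 and 6.26 at ZT21, highest at ZT5, where *Hsph1* and *Hsp90aa1* were lowest (amplitude 0.65 ± 0.24, adjusted p = 0.0978), and *Rbm3* had an amplitude of 0.45 ± 0.22 (adjusted p = 0.101). In the endoplasmic reticulum list 1 of 23 genes was rhythmic (4.35%), *Calr*, which encodes calreticulin and peaked at ZT23.7 ± 0.646 h (amplitude 0.49 ± 0.08).

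Of 27 genes of haem and drug metabolism, 4 passed (14.8%), and 3 of these peaked early in the night. *Alas1*, the rate-limiting enzyme of haem synthesis, was at 83.1 CPM at ZT1, 58.1 at ZT5, 193 at ZT9, 688 at ZT13, 206 at ZT17 and 87.5 at ZT21, with one high library at ZT13 (amplitude 1.52 ± 0.39, adjusted p = 0.00331). *Por*, which passes electrons to cytochrome P450 enzymes, was at 91.1 CPM at ZT1, 99 at ZT5, 143 at ZT9, 347 at ZT13, 256 at ZT17 and 99.5 at ZT21 (amplitude 0.99 ± 0.20, adjusted p = 0.00108). *Cyp2a5*, a P450 of coumarin oxidation, followed at 75.1 CPM at ZT1, 115 at ZT5, 256 at ZT9, 378 at ZT13, 522 at ZT17 and 207 at ZT21, peaking at ZT14.6 ± 0.565 h (amplitude 1.31 ± 0.19, adjusted p = 0.0014). All 3 were lowest at ZT1 or ZT5. *Ces1d*, a carboxylesterase, peaked later, at ZT19.1 ± 0.343 h, with an amplitude of 0.51 ± 0.05, and its call was lost in each fit that left out a time point. The abundant *Cyp2e1* and *Cyp3a11* did not pass (adjusted p = 0.479 and 0.357).

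Glucose and glycogen genes split into opposite phases, with 4 of 24 rhythmic (16.7%). *Gys2*, the liver glycogen synthase, was at 75.6 CPM at ZT1, 99.9 at ZT5, 143 at ZT9, 229 at ZT13, 183 at ZT17 and 125 at ZT21, peaking at ZT14 ± 0.384 h (amplitude 0.73 ± 0.07, adjusted p = 0.00324). *Pfkfb3*, which makes an activator of glycolysis, peaked nearby at ZT12.5 ± 0.553 h (amplitude 0.94 ± 0.14, adjusted p = 0.0358), and its call was lost in each fit without a time point. *Ppp1r3c*, a glycogen-targeting subunit of protein phosphatase, ran the other way at 156 CPM at ZT1, 110.2 at ZT5, 73.2 at ZT9, 37.6 at ZT13, 85.3 at ZT17 and 170.3 at ZT21, peaking at ZT0.0327 ± 0.751 h (amplitude 0.97 ± 0.19, adjusted p = 0.0181). *Irs2*, an adaptor of the insulin receptor, peaked at ZT0.749 ± 0.919 h (amplitude 0.90 ± 0.22, adjusted p = 0.0301). The gluconeogenic gene *Pck1* was at 432 CPM at ZT1, 452 at ZT5, 510.4 at ZT9, 629 at ZT13, 685 at ZT17 and 364 at ZT21 and did not pass (adjusted p = 0.624).

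Rhythmic lipid genes peaked at different times of day. Of 21 genes of triglyceride synthesis and lipid droplets, 4 passed (19.0%). *Lpin2*, a phosphatidate phosphatase, was at 74.5 CPM at ZT1, 112 at ZT5, 186 at ZT9, 263 at ZT13, 163 at ZT17 and 104 at ZT21 (peak ZT12.6 ± 0.287 h, amplitude 0.84 ± 0.06, adjusted p = 0.0223). *Plin5*, a lipid droplet coat protein, was at 61.2 CPM at ZT1, 43.4 at ZT5, 27.8 at ZT9, 58.9 at ZT13, 80.1 at ZT17 and 75.7 at ZT21 (amplitude 0.68 ± 0.16, adjusted p = 0.027). The lipases *Lpl* and *Mgll* had amplitudes of 0.55 ± 0.08 and 0.42 ± 0.12 and peaked at opposite times, ZT3.44 and ZT17.3. *Cidec* had an amplitude of 0.76 ± 0.39 and missed the threshold (adjusted p = 0.0971). In fatty acid oxidation 3 of 31 passed (9.68%): *Pdk4*, which turns pyruvate away from oxidation, at 14.6 CPM at ZT1, 13.1 at ZT5, 2.84 at ZT9, 8.07 at ZT13, 9.81 at ZT17 and 29.8 at ZT21 (adjusted p = 0.0375), the thioesterase gene *Acot4* (amplitude 0.58 ± 0.18) and *Ucp2* (amplitude 0.34 ± 0.06). *Ppara* did not (adjusted p = 0.287). None of 17 tested genes of fatty acid synthesis passed. The summed level of the 18 genes of the list was lowest at ZT1 (8419 CPM) and highest at ZT13 and ZT21 (26964 and 26962 CPM). This sum may be mostly *Scd1* and need not describe the other members. In H and L *Scd1* was at 18821 and 18435 CPM, beside 1553 and 1397 CPM for *Fasn*. *Fasn* was at 346 CPM at ZT1, 1084 at ZT5, 1064 at ZT9, 2199 at ZT13, 966 at ZT17 and 1024 at ZT21, with ZT21 far above ZT1, and its cosine missed the threshold (amplitude 0.87 ± 0.39, adjusted p = 0.151), while *Srebf1* had an adjusted p of 0.163.

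Of 26 sterol genes 1 was rhythmic (3.85%, beside 5.21% of all tested genes). *Insig2*, which retains the sterol sensor in the endoplasmic reticulum, was at 254 CPM at ZT1, 276 at ZT5, 119 at ZT9, 57.1 at ZT13, 134 at ZT17 and 255 at ZT21, peaking at ZT0.955 ± 0.839 h (amplitude 1.07 ± 0.24, adjusted p = 0.00723). Of 20 bile acid genes, 2 passed (10%): *Abcb11*, the bile salt export pump, at 439 CPM at ZT1, 534 at ZT5, 306 at ZT9, 252 at ZT13, 177 at ZT17 and 339.7 at ZT21 with a peak at ZT3.45 ± 0.736 h (adjusted p = 0.0152), and *Acox2*, a peroxisomal oxidase of the side chain (amplitude 0.40 ± 0.08, adjusted p = 0.0423). *Cyp7a1*, the rate-limiting enzyme of bile acid synthesis, alternated between low and high libraries, 53.4 CPM at ZT1, 147 at ZT5, 64.8 at ZT9, 113 at ZT13, 66.8 at ZT17 and 138 at ZT21, and had a fitted amplitude of 0.02 ± 0.47 (adjusted p = 0.974). *Cyp8b1* varied 8.60-fold, with an amplitude of 1.04 ± 0.61 and no call (adjusted p = 0.14).

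**Figure D4:**
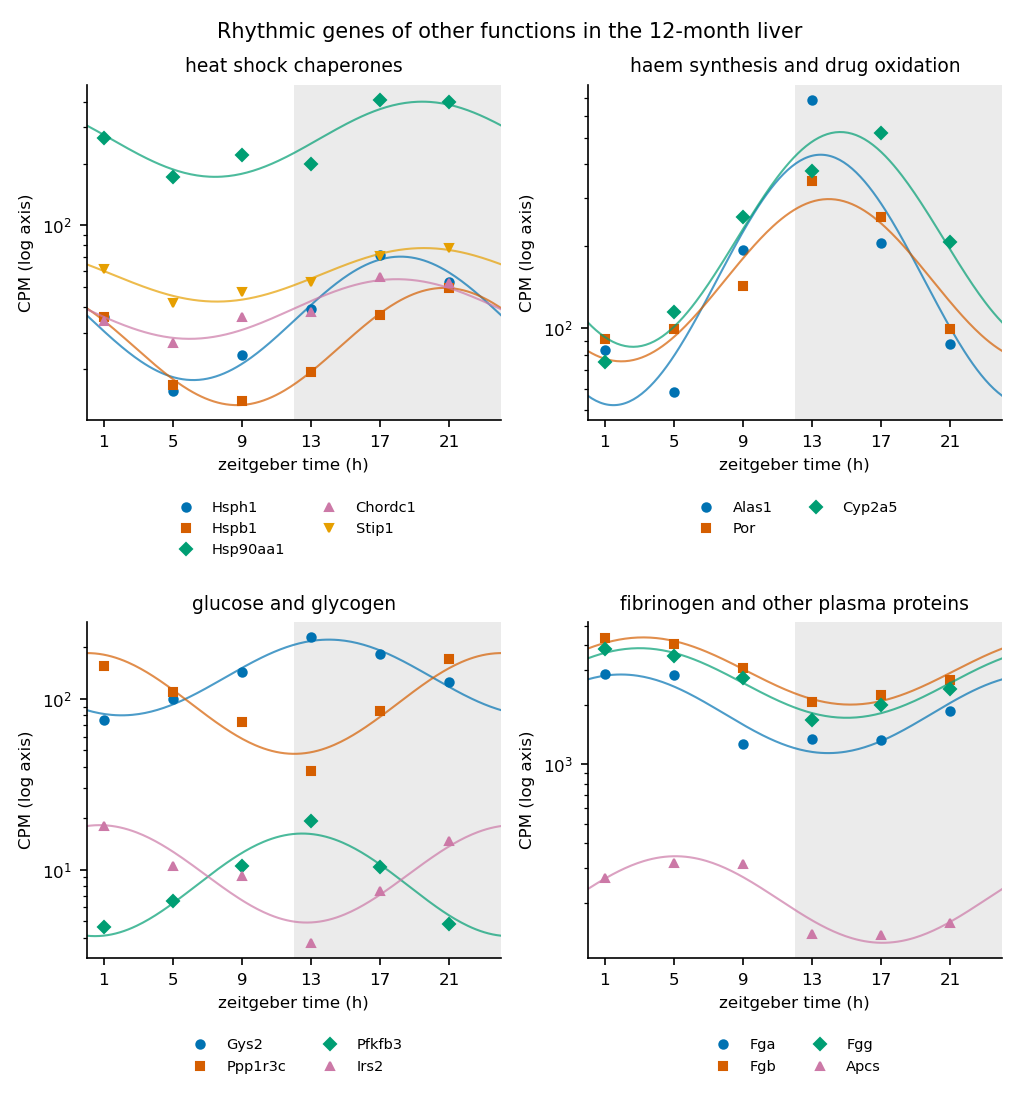
Level in CPM on a log axis against zeitgeber time for rhythmic genes of 4 functions at 12 months; points are single libraries, lines the fitted cosines, and the dark phase is shaded. Chaperones peak from ZT18 to ZT20.7, haem and drug oxidation genes from ZT13.5 to ZT14.6, *Gys2* and *Pfkfb3* run against *Ppp1r3c* and *Irs2*, and the plasma proteins peak from ZT1.93 to ZT5.08.

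Amino acid genes had 4 of 34 members rhythmic (11.8%). *Gldc*, of the glycine cleavage system, was at 125 CPM at ZT1, 105 at ZT5, 46.7 at ZT9, 46.5 at ZT13, 64.4 at ZT17 and 144 at ZT21 (peak ZT23.9 ± 0.552 h, adjusted p = 0.00301). *Cbs*, of transsulfuration, peaked at ZT3.05 ± 0.89 h, and *Hal*, which breaks down histidine, at ZT3.22 ± 0.733 h, with amplitudes of 0.61 ± 0.14 and 0.50 ± 0.10. *Slc7a2*, a carrier of cationic amino acids, rose and fell smoothly at 127 CPM at ZT1, 208 at ZT5, 249 at ZT9, 182 at ZT13, 131 at ZT17 and 100.3 at ZT21 (amplitude 0.64 ± 0.04, adjusted p = 0.0338), but its call was lost in each fit without a time point. *Tat* and *Cps1* did not pass (adjusted p = 0.665 and 0.937).

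Of 21 acute-phase and fibrinogen genes tested, 6 were rhythmic (28.6%), with peaks early in the light phase from ZT0.919 to ZT5.08, and 15 did not pass. The 3 fibrinogen chains were all called. *Fga* was at 2877 CPM at ZT1, 2840.0 at ZT5, 1272 at ZT9, 1345 at ZT13, 1323 at ZT17 and 1864 at ZT21, *Fgb* at 4379.6 CPM at ZT1, 4092 at ZT5, 3083 at ZT9, 2073 at ZT13, 2234 at ZT17 and 2685 at ZT21 and *Fgg* at 3827 CPM at ZT1, 3542 at ZT5, 2737 at ZT9, 1670.3 at ZT13, 1992 at ZT17 and 2407 at ZT21. At ZT9 *Fga* was at its lowest, while *Fgb* and *Fgg* were above their dark-phase levels. Each was higher at ZT1 and ZT5 than at the 3 dark-phase times, with amplitudes of 0.66 ± 0.15, 0.56 ± 0.06 and 0.58 ± 0.08 and adjusted p of 0.0196, 0.0117 and 0.0132. *Apcs*, serum amyloid P, was at 266 CPM at ZT1, 319 at ZT5, 312 at ZT9, 139 at ZT13, 137 at ZT17 and 158 at ZT21 (amplitude 0.73 ± 0.12, adjusted p = 0.0242). *Saa1*, serum amyloid A, had the second highest amplitude of the rhythmic genes, 2.33 ± 1.27, and an r2 of 0.53 to its cosine: it was at 506 CPM at ZT1, 1541 at ZT5, 24.9 at ZT9, 27 at ZT13, 108 at ZT17 and 32.4 at ZT21, high in 2 libraries and low in the others (adjusted p = 0.0412). It kept its call in 3 of 6 fits that left out a time point. *Lbp* rested on the ZT1 library, at 67.9 CPM at ZT1, 37.9 at ZT5, 20.8 at ZT9, 25.8 at ZT13, 29 at ZT17 and 28.1 at ZT21, and its amplitude was 0.27 without that library and 0.59 with it. None of the acute-phase genes was called at 2 months and 14 were at 6 months, in the same test over the same genes; the list was not tested for a difference between ages. The 6-month livers held far more acute-phase RNA: *Saa1* ranged from 5246 to 22661 CPM over their 6 libraries, and from 80.3 to 329.9 CPM at 2 months. *Hp* and *Orm1* did not pass at 12 months (adjusted p = 0.247 and 0.0545).

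Genes that answer growth hormone or glucocorticoids followed. Of 17 genes of the growth hormone axis, 4 passed (23.5%). *Elovl3*, an elongase of very long fatty acids, was at 412 CPM at ZT1, 283 at ZT5, 69.9 at ZT9, 24.3 at ZT13, 115 at ZT17 and 524 at ZT21, a 21.6-fold difference, with a peak at ZT0.152 ± 0.62 h (amplitude 2.10 ± 0.34, adjusted p = 0.00108). *Hsd3b5*, a male-biased steroid dehydrogenase, was at 368 CPM at ZT1, 346 at ZT5, 372 at ZT9, 191 at ZT13, 111 at ZT17 and 225 at ZT21 (adjusted p = 0.0222). *Stat5a* and *Stat5b*, the signal carriers of the receptor, had amplitudes of 0.60 ± 0.20 and 0.43 ± 0.10, and *Igf1* did not pass (adjusted p = 0.569). Of 11 glucocorticoid targets, *Per1* and *Tsc22d3* passed (18.2%). *Tsc22d3*, or GILZ, was at 58.1 CPM at ZT1, 53.2 at ZT5, 43.3 at ZT9, 73.5 at ZT13, 133 at ZT17 and 111 at ZT21 (adjusted p = 0.0309), a call lost in each fit without a time point, and *Fkbp5* was at 16.9 CPM at ZT1, 16 at ZT5, 22.2 at ZT9, 40 at ZT13, 61.8 at ZT17 and 24.3 at ZT21 and fell short (adjusted p = 0.0611). Among 13 immediate-early genes 1 passed (7.69%), *Cdkn1a*, which encodes the cell cycle inhibitor p21: 9.79 CPM at ZT1, 4.07 at ZT5, 1.73 at ZT9, 2 at ZT13, 7.77 at ZT17 and 23.3 at ZT21 (amplitude 1.66 ± 0.19, adjusted p = 0.0303). *Egr1*, the factor the study is about, was at 6.3 CPM at ZT1, 4.53 at ZT5, 3.86 at ZT9, 4.12 at ZT13, 2.38 at ZT17 and 14.3 at ZT21, highest at ZT21, with an amplitude of 0.67 ± 0.45 (adjusted p = 0.38).

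In iron handling 2 of 13 passed (15.4%): *Tfrc*, the transferrin receptor, at 12.2 CPM at ZT1, 11.6 at ZT5, 17.2 at ZT9, 36.1 at ZT13, 36.5 at ZT17 and 17.4 at ZT21 (adjusted p = 0.0116), and *Bmp6*, which endothelial cells make to drive hepcidin, at 7.38 CPM at ZT1, 6.4 at ZT5, 7.25 at ZT9, 10.8 at ZT13, 19.3 at ZT17 and 11.5 at ZT21 (adjusted p = 0.00552). *Hamp*, hepcidin itself, did not pass (adjusted p = 0.662). Of 14 interferon-induced genes *Cmpk2* passed (7.14%), with an amplitude of 0.73 ± 0.16, and none of 20 genes of ribosome biogenesis did. Over all the function lists, 63 of 379 genes were rhythmic (16.6%), beside 5.21% of all tested genes. The 63 include the 18 of 24 clock genes. The lists were chosen with earlier results of these data known, so this share cannot be read as a result about the functions. Among cell type markers, 3 of 9 of sinusoidal endothelium passed and peaked together at ZT16.5 to ZT17.7: *Ptprb*, 52.9 CPM at ZT1, 42.9 at ZT5, 58.3 at ZT9, 76 at ZT13, 91.9 at ZT17 and 70.4 at ZT21 (adjusted p = 0.00217), *Kdr*, the receptor VEGFR2 (amplitude 0.48 ± 0.12), and *Fcgr2b* (amplitude 0.36 ± 0.04). In whole liver, fewer cells of a type and less RNA per cell cannot be told apart. None of 11 Kupffer cell and macrophage markers or 9 stellate cell markers passed.

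Several of the largest rhythms belonged to no list. Around ZT1 these were *Spon2*, a secreted matrix protein, at 20 CPM at ZT1, 18.1 at ZT5, 3 at ZT9, 2.5 at ZT13, 2.04 at ZT17 and 14.7 at ZT21 (amplitude 1.77 ± 0.31, adjusted p = 0.000493), *Chka*, choline kinase alpha, at 72.6 CPM at ZT1, 48.6 at ZT5, 9.54 at ZT9, 11 at ZT13, 23.4 at ZT17 and 57.3 at ZT21 (amplitude 1.54 ± 0.21, adjusted p = 0.00248), and *Fam89a* (amplitude 1.36 ± 0.38, adjusted p = 0.0216). All 3 were lowest at ZT9 to ZT17. Around ZT5 stood *Mup18*, a major urinary protein gene (amplitude 1.78 ± 0.32), *Hectd2os*, an antisense RNA at 23.9 CPM at ZT1, 33.2 at ZT5, 46 at ZT9, 14.4 at ZT13, 4.2 at ZT17 and 10.2 at ZT21 (amplitude 1.48 ± 0.29), *Gm36041* (amplitude 1.38 ± 0.17) and the lectin gene *Clec2h* (amplitude 1.30 ± 0.20). *Mup18* has near-identical neighbours and *Hectd2os* lies across another gene, and since strand is not stated for the counts, their reads may be split or shared. Of the same family, *Mup10*, *Mup4* and *Mup15* had amplitudes of 2.48 ± 0.95, 1.96 ± 1.96 and 1.94 ± 0.48 and did not pass (adjusted p = 0.234, 0.344 and 0.123). Around ZT9, *mt-Nd4l*, a mitochondrial gene, was at 52.5 CPM at ZT1, 88 at ZT5, 324 at ZT9, 174 at ZT13, 33.5 at ZT17 and 30 at ZT21 (amplitude 1.66 ± 0.32, adjusted p = 0.00451), beside the mitochondrial share of 12.6% in the ZT9 library. *Igkv3-2*, an immunoglobulin variable segment, followed *Jchain*.

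In the window around ZT13, *Rgs16*, a brake on G protein signalling, was at 1.4 CPM at ZT1, 33.7 at ZT5, 48.3 at ZT9, 42.1 at ZT13, 23 at ZT17 and 5.98 at ZT21 (amplitude 2.14 ± 0.63, adjusted p = 0.0281). Its fitted peak was ZT11.1 ± 1.12 h, and its highest library was ZT9, in the light phase. *Mfsd2a*, a transporter of lysophosphatidylcholine, was at 2.61 CPM at ZT1, 7.63 at ZT5, 13.1 at ZT9, 50.9 at ZT13, 19.1 at ZT17 and 9.22 at ZT21 (amplitude 1.66 ± 0.32, adjusted p = 0.00407). Around ZT17 the largest were *Zfp969*, a zinc finger gene with close relatives, at 2.54 CPM at ZT1, 0.517 at ZT5, 2.84 at ZT9, 5.62 at ZT13, 19.2 at ZT17 and 17.9 at ZT21 with 8 reads at ZT5 (0.223 to 1.02 CPM; amplitude 2.05 ± 0.34, adjusted p = 0.00623), the pseudogene *Rps18-ps3* (amplitude 1.53 ± 0.41), whose reads may come from its parent, and *Tsku*, a secreted hepatokine, at 30.9 CPM at ZT1, 18 at ZT5, 22.9 at ZT9, 126 at ZT13, 84.5 at ZT17 and 61.6 at ZT21 (amplitude 1.31 ± 0.32, adjusted p = 0.0103). Around ZT21 *Ppard*, a nuclear receptor of fatty acids, was at 18.9 CPM at ZT1, 7.31 at ZT5, 3.31 at ZT9, 3.84 at ZT13, 6.86 at ZT17 and 26.5 at ZT21 (amplitude 1.44 ± 0.18, adjusted p = 0.00248), rising and falling with *Nfil3* and *Arntl*.

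The rhythms at 12 months were compared with those at 2 and 6 months in the same fit, over the same 9103 genes. At 2 months 665 genes were rhythmic (7.31%) and at 6 months 620 (6.81%). Of the 12-month genes, 320 were also called at 2 months, which is 67.5% of the 12-month list and 48.1% of the 2-month list, and 195 at 6 months (41.1% and 31.5%). At all 3 ages 166 genes were called. At 12 months and at neither other age 125 were, but of these only 3 (*Serpina1e*, *mt-Atp6* and *mt-Ts2*, named after their values were seen) kept their call in all 6 fits that left out a 12-month time point, so the list of 125 is not firm.

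Peak times were compared over genes called at both ages. Among the 320 genes called at 12 and 2 months, the peak was a median of 1.53 h later at 12 months (10th to 90th percentile -0.06 to 3.17 h), later in 286 genes and earlier in 34. Among the 195 called at 12 and 6 months it was a median of 0.70 h earlier (-2.80 to 2.00 h), earlier in 125 and later in 70. The median amplitude at 12 months was 0.60 beside 0.63 at 2 months over the first set, and 0.62 beside 0.65 at 6 months over the second. Of the 18 rhythmic clock genes, all 18 peaked later at 12 than at 2 months, by 0.179 to 2.80 h, and 14 peaked earlier at 12 than at 6 months, with shifts from -2.82 to 0.93 h. Of the 18, *Per1*, *Klf10* and *Tspan4* were not called at 6 months in the same F-test (adjusted p = 0.338, 0.469 and 0.823). Their peak times at that age are not firm, and the shift of 0.93 h was that of *Per1*. None of these 18 passed the test of a difference in rhythm by itself, where the smallest adjusted p was 0.981 against 2 months and 0.145 against 6 months. The genes of one library share its hour of collection and its animals, so the 18 shifts are not independent. The 6-month libraries are also those with the high acute-phase RNA given above. Its part in the shifts from 6 months, or in the calls shared with that age, was not tested.

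**Figure D5:**
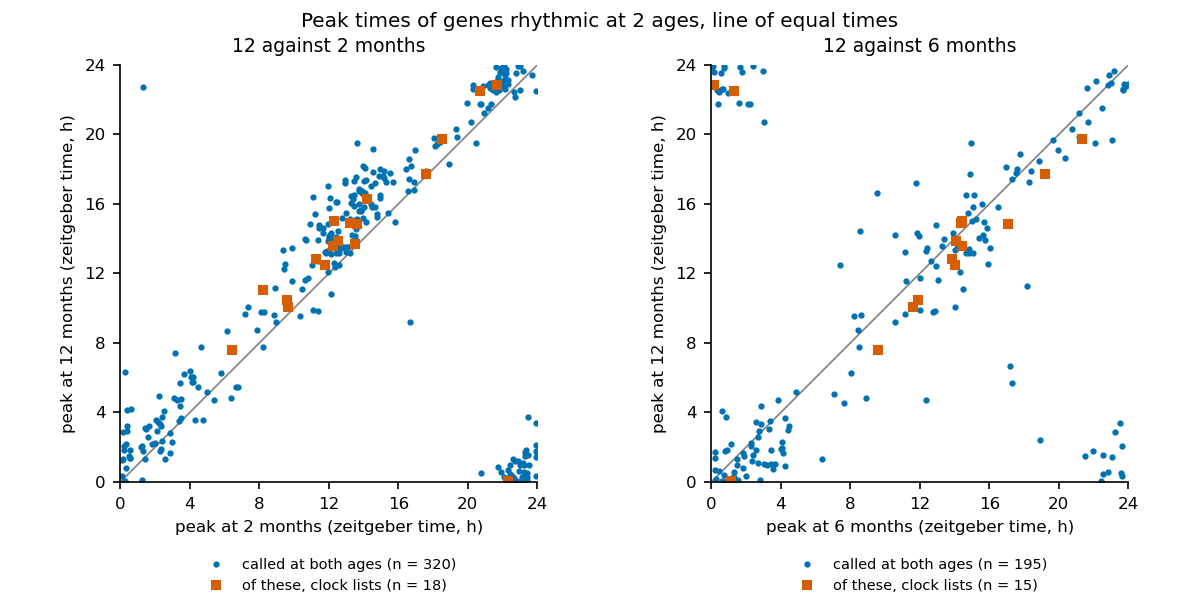
Fitted peak time at 12 months against that at 2 months (left, 320 genes) and 6 months (right, 195 genes), in hours of zeitgeber time on circular 24-h scales, for genes called rhythmic at both ages; squares are clock genes and the line marks equal times. Most points lie above the line against 2 months (median shift 1.53 h), and 125 of 195 genes peak earlier at 12 than at 6 months.

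No gene passed the test of a difference in rhythm between 12 and 2 months (0 of 9103, 0%; edgeR quasi-likelihood F-test), with 440 at an unadjusted p under 0.05, a smallest adjusted p of 0.381, and 12 genes by DESeq2. The smallest p belonged to *Mug-ps1*, a pseudogene of a murinoglobulin, *mt-Nd4l*, *Trak2*, an adaptor of mitochondrial transport, *mt-Atp6*, and *Cpt1a*, which admits fatty acids to mitochondria. For *Cpt1a* the amplitudes were 0.29 ± 0.13 in the older and 0.72 in the younger livers (adjusted p of the difference 0.615). Its levels at 2 months were 132 CPM at ZT1, 193 at ZT5, 305 at ZT9, 252 at ZT13, 149 at ZT17 and 111 at ZT21, and at 12 months 119 CPM at ZT1, 126 at ZT5, 124 at ZT9, 204 at ZT13, 146 at ZT17 and 138 at ZT21. The highest library was ZT9 at 2 months and ZT13 at 12 months, a difference in rhythm that did not pass the test.

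Between 12 and 6 months 10 genes differed in rhythm (0.11%). *Clec2h* peaked at ZT4.73 at 12 months and ZT12.3 at 6 months, with amplitudes of 1.30 and 1.28 (adjusted p of the difference 0.0099). It was at 12.8 CPM at ZT1, 14.3 at ZT5, 13.9 at ZT9, 3.95 at ZT13, 2.16 at ZT17 and 5.49 at ZT21 at 12 months and at 1.21 CPM at ZT1, 2.49 at ZT5, 7.97 at ZT9, 9.44 at ZT13, 4.99 at ZT17 and 2.24 at ZT21 at 6 months. *Flt4*, the receptor VEGFR3, peaked at ZT16.6 and ZT9.54 (adjusted p 0.0338). *Hbb-bt* peaked at ZT6.66 and ZT17.2 (adjusted p 0.0319), beside the high globin of the 12-month ZT9 library. The other genes are taken up in the closing section.

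The other 12-month wild-type livers, H and L, showed little of the difference that the time course showed between ZT5 and ZT21. Of 470 rhythmic genes measured in both experiments, 267 (56.8%) changed in the same direction from L to H in the genotype experiment as from ZT21 to ZT5 in the time course, beside 5074 of 9050 (56.1%) of all tested genes. The correlation of the log2 differences across the 470 genes was 0.13 (Pearson, a description across genes that share 4 libraries). The median size of the difference was 0.51 on the log2 scale in the time course and 0.23 between H and L. The 264 genes whose cosine predicted a difference of 0.5 or more gave 158 in the same direction (59.8%). Of the 18 rhythmic clock genes 8 went the same way. *Nr1d1* was at 44.3 CPM at ZT5 and 1.34 CPM at ZT21 in the time course but at 8.59 CPM in H and 12.5 CPM in L. *Dbp* was at 22.8 and 3.59 CPM in the time course, and at 2.43 CPM in H and 4.76 CPM in L. *Arntl* was at 31.5 CPM in H and 22.1 CPM in L, both above each of the 6 time-course libraries. The median difference of the 18 clock genes was 0.28 between H and L on the log2 scale and 1.05 between ZT5 and ZT21. H and L were chosen by the highest and lowest level of *Egr-1* protein. *Egr1* RNA was at 5.83 CPM in H and 54.8 CPM in L, a log2 difference of -3.13 from L to H. The time course had the same direction, with -1.56 from ZT21 to ZT5. The study places the 12-month peak of *Egr-1* mRNA at ZT21 and that of its protein at ZT5. The collection times of H and L rest on the study's methods alone, and no value here checks them. H and L come from another experiment and line, and experiment, line and time of collection cannot be told apart.

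The calls differed in how far they leaned on single libraries. When each 12-month time point was left out in turn, 101 of the 474 genes stayed called in all 6 fits and 35 in none. Of the 78 named genes that were called, 26 stayed in all 6, among them *Dbp*, *Nr1d1*, *Nr1d2*, *Per1*, *Per2*, *Per3*, *Cry1*, *Nfil3*, *Usp2*, *Nampt*, *Elovl3*, *Spon2*, *Chka*, *Ppard*, *Por*, *Cyp2a5*, *Gys2*, *Gldc* and *Hspb1*. In 5 of 6 fits stayed 12, such as *Arntl*, *Clock*, *Tef*, *Insig2* and *Alas1*, and in 4 stayed 8, such as *Hsph1*, *Abcb11*, *Ppp1r3c*, *Cbs* and *Tfrc*. A further 13 stayed in 3, among them *Saa1*, *Wee1*, *Hsp90aa1*, *Lpin2*, *Plin5*, *Hal*, *Hsd3b5* and *Fga*. In 2 fits or fewer stayed *Rgs16*, *Rps18-ps3*, *Klf10*, *Chordc1*, *Pdk4*, *Acot4*, *Ucp2*, *Irs2*, *Car1*, *Igkv3-2*, *Cdkn1a*, *Mgll*, *Acox2*, *Apcs*, *Lbp*, *Pfkfb3*, *Slc7a2*, *Ces1d* and *Tsc22d3*. Each left-out time point cost between 18 and 33 of the 78 calls, the fewest without ZT9 and the most without ZT13. A test of the kind JTK_cycle makes (exact permutation, two-sided), run on the 6 libraries alone, ranks the values against cosines and cannot give a p below 0.0333 from the 720 orders. In it, 169 of the 474 genes (35.7%) and 635 of all tested (6.98%) reached that smallest unadjusted p.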

How the data were processed

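Poly(A) RNA of mouse liver was sequenced, and the authors cleaned reads with fastp, aligned them to mm10 with HISAT2 and counted them per gene with featureCounts (versions and strand setting not given in the sources used here). The deposited values are raw counts per gene and library, by symbol in the time course, with 0 sample columns unused. Members and lists were chosen with earlier results of these data known. CPM were computed from library totals and TMM factors over the 18 time-course libraries, and genes with a mean CPM of 5 or more at 12 months were kept.

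The test was edgeR's quasi-likelihood F-test (edgeR 4.0.16, R 4.3.3) with a mean, a cosine and a sine term per age, which leaves 9 residual degrees of freedom shared by the 3 ages, and Benjamini-Hochberg adjustment over the 9103 genes. The p-values measure the spread of single libraries around smooth curves, which may be technical or due to single mice. Amplitude and peak time with standard errors came from a least-squares cosine on log2(CPM + 0.5) over 6 points (3 residual degrees of freedom), so amplitudes of low genes are understated. Fold differences between libraries are ratios of CPM with nothing added, and those of low genes rest on few reads. DESeq2 1.42.0 and limma 3.58.1 were alternatives, beside other scalings, filters and pseudocounts, fewer libraries and the loss of each time point. In the text are named, by rule, the 5 genes of largest amplitude per 4-h window, the tested clock genes, up to 4 called and 2 well-known uncalled members of each other list, and the 5 smallest p per age difference. Locations are from GENCODE M21 (GRCm38), which gave 1 match for 9057 of 9103 symbols. Some members outside this rule (*Stip1*, *Fkbp4*, *Ahsa1*, *Fgb*, *Fgg*, *Scd1*, *Serpina1e*, 3 uncalled *Mup* genes, endothelial markers, and the other genes that differed from 6 months) were named after their values were seen. Results for some named items are not reported here. Counting intervals are exact Poisson at 95%. The scripts were checked on simulated counts.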

Additional observations from a re-analysis of the deposited data

Results flagged for a closer look

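The daily rhythm of 10 genes differed between 12 and 6 months by edgeR's quasi-likelihood F-test of the difference in cosine and sine terms. The adjusted p was 0.00626 for *Steap4*, a metalloreductase, whose amplitude was 0.17 at 12 months and 1.49 at 6 months. At 6 months it went from 1637 CPM at ZT5 to 162 CPM at ZT17, and at 12 months it stayed between 71.2 and 94.3 CPM. The same 6-month ZT5 library held the highest *Saa1* of that age, 22661 CPM. The part of the high acute-phase RNA at 6 months in this difference was not tested. The lectin gene *Clec2h* had an adjusted p of 0.0099. *Car1*, carbonic anhydrase of red cells, and *Ndufb1-ps*, a pseudogene of a complex I subunit, had 0.0274 each, with peaks at ZT11.3 and ZT3.23 at 12 months and at ZT18.2 and ZT16.9 at 6 months. The globin gene *Hbb-bt* had 0.0319. *Flt4*, *Insig1*, *Isyna1* and *Fndc3b* had 0.0338 each: the sterol regulator *Insig1* peaked at ZT8.74 at 12 months and ZT21.6 at 6 months, and *Isyna1*, of inositol synthesis, at ZT19.5 and ZT7.21, while the amplitude of *Fndc3b* was 0.23 at 12 months and 0.83 at 6 months. The mitochondrial tRNA gene *mt-Tc* had 0.0498. The count moved with the processing and with single libraries, as the next part gives. The high globin and mitochondrial counts of the 12-month ZT9 library stand beside *Hbb-bt*, *Car1* and *mt-Tc*, and their part in these differences was not tested.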

How the results depend on the processing

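The median shifts of peak time, taken over the genes called at both ages in the main fit, kept their direction in each alternative. Alternatives that changed only the test or the filter used the same fitted peaks, so their shifts could not differ. Only other scalings, the other pseudocount, fewer libraries and left-out time points could move them. Some shares of peaks fell below those of all tested genes in the main fit. Around ZT17 the share was 16.9% with the 6 libraries alone and 18.9% without ZT5, beside 19.0% of all tested genes. From ZT12 to ZT24 it was 51.3% with DESeq2's test and 52.1% without ZT9, beside 52.4%. Shifts of peak time and the windows around ZT1 and ZT17 were added after the data were seen: the median shift was 1.34 to 1.53 h from 2 months and -0.92 to -0.57 h from 6 months over all alternatives, and all 18 clock genes were later than at 2 months except without ZT9, ZT17 or ZT21 (16 each). DESeq2's likelihood-ratio test called 766 rhythmic genes (472 of the 474 among them), with 51.3% peaking from ZT12 to ZT24, 499 shared with 2 months, 329 shared with 6 months, 12 with a rhythm that differed from 2 months and 232 from 6 months. The 6 libraries alone called 213 genes, 183 of them among the 474, with 16.9% around ZT17. With library totals in place of TMM factors 71.0% peaked from ZT12 to ZT24, 21.2% around ZT1 and 33.1% around ZT17, and 5 genes differed from 6 months. With no filter on low counts 4 genes differed from 2 months and 130 from 6 months. Leaving out 1 time point of 12 months gave 256 to 491 rhythmic genes, lowest without ZT13 and highest without ZT21, of which 226 to 371 were among the 474. It gave 52.1% to 60.6% peaking from ZT12 to ZT24 (lowest without ZT9), 21.8% to 28.4% around ZT1 (lowest without ZT21), 18.9% to 27.7% around ZT17 (lowest without ZT5), 190 to 300 genes shared with 2 months, 108 to 189 shared with 6 months, 5 to 77 that differed from 6 months (77 without ZT21) and 33 to 64 list members called. The cause of these shifts was not tested, beyond the fewer libraries of some fits. Of the results on single named genes, 1168 kept their side of the threshold, 213 lost their call and 11 gained one. With 1 library per time point, no spread between mice could be measured. No paired analysis was possible because each group has 1 library, so that the replicate number is the same in all and marks no pairs.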
